A study of Mus musculus with 2 samples.

Results

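The Mir9 and Mir124a genes were taken by name from the microRNA genes listed for mouse left cerebral cortex: Mir9-1, Mir9-2, Mir9-3, Mir124a-1, Mir124a-2 and Mir124a-3, which are 6 of 2202 genes. The libraries came from 2 females aged 10 days, hybrids of the inbred strains C57BL/6J and CAST/EiJ sold as B6CASTF1/J, and total RNA was used for microRNA sequencing of inserts under 30 bases. Both animals form 1 group, with no treatment named, so there is no treatment or genotype to compare. They are called animal 1 and animal 2 after their biological replicate numbers. The labels number the females differently but give both the same donor entry, so differences between the libraries may be partly technical.

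A microRNA gene is transcribed into a hairpin, and the 5p and 3p arms of the hairpin are cut out as short mature RNAs. The seed, bases 2 to 8 of a mature arm, is the main determinant of which messenger RNAs it pairs with. miR-9 is known from neural precursors and their differentiation into neurons, and miR-124 is a classic microRNA of differentiated neurons. Both are made from several genes on different chromosomes.

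The 3 Mir9 hairpins are shown because the copies differ only outside the mature arms. Capitals mark those arms, which are the same in every copy. The sequences are RefSeq's, on GRCm38.p6 and the plus strand, and cover chr3:88215598-88215686 (Mir9-1, ENSMUSG00000106493.1), chr13:83738814-83738885 (Mir9-2, ENSMUSG00000065424.2) and chr7:79505264-79505353 (Mir9-3, ENSMUSG00000093238.1).
Mir9-1: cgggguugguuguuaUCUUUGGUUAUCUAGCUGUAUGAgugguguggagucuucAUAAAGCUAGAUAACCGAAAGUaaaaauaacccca
Mir9-2: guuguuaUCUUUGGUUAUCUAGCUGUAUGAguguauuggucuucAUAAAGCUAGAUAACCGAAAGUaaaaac
Mir9-3: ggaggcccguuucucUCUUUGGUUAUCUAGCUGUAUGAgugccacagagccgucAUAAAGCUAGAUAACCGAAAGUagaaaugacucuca

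The hairpins are 89, 72 and 90 bases long. Mir9-1 and Mir9-2 were identical in 70 of 89 columns of a global alignment (78.7%) and shared a run of 33 bases. Columns with a gap count as unlike in these percentages. Mir9-2 has only 72 bases, so 78.7% understates the likeness of this pair where both have sequence. Mir9-3 was 78.9% identical to Mir9-1 and 71.1% to Mir9-2, and its longest run shared with either was 26 bases, little longer than the 23-base 5p arm. Of the 6 genes, 3 had an entry in the RefSeq table; Mir124a-1, Mir124a-2 and Mir124a-3 are named only.

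The mature arms of the Mir9 genes are given with the seed in capitals. miR-9b is the microRNA annotated on the strand opposite Mir9-1, and its seeds differ from those of miR-9. Among the mature microRNAs of the RefSeq table, no other arm carried any of these 4 seeds.
mmu-miR-9-5p: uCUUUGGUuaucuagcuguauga
mmu-miR-9-3p: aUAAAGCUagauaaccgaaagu
mmu-miR-9b-5p: uUCGGUUAucuagcuuuauga
mmu-miR-9b-3p: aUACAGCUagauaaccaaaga

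A read that covers a miR-9 arm and no base beyond it on either side fits all 3 copies. The next lines show each arm followed by the next bases of the hairpin, with capitals at bases that differ from both other copies. A read that starts with the 5p arm must run 4 bases past its 3′ end before any of the 3 copies can be told from the others.
Mir9-1 5p: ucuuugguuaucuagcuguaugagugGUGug
Mir9-2 5p: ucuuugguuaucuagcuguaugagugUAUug
Mir9-3 5p: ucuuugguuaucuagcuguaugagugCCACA

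For the 3p arm the copies part at different distances. Mir9-3 differs from both others 2 bases past the 3′ end, while Mir9-1 and Mir9-2 part from each other only at base 6.
Mir9-1 3p: auaaagcuagauaaccgaaaguaaaaauaa
Mir9-2 3p: auaaagcuagauaaccgaaaguaaaaaC
Mir9-3 3p: auaaagcuagauaaccgaaaguaGaaauga

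Mir9-3 also differs from the others in the first base before the 5p arm, while Mir9-1 and Mir9-2 are alike up to the start of the Mir9-2 hairpin, 7 bases upstream. Of the 22-base windows of each hairpin, 60 of 69 in Mir9-3 (87.0%) occurred at no other hairpin locus of the RefSeq table, against 44 of 68 in Mir9-1 (64.7%) and 27 of 51 in Mir9-2 (52.9%). Windows were searched for on both strands. A genome was not used here, so other genomic matches were not looked for.

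Read counts on a gene's own strand were scaled to a total of 1000000 reads counted to microRNA genes (CPM). Animal 1 had 3806078 such reads and animal 2 had 2602935. Reads that fit several positions are not in these totals: their row held 4850682 reads in animal 1 and 3454278 in animal 2, or 1.27 and 1.33 times the counted reads. The limit for detection was 10 CPM, to be reached in each library; it equals 38.1 reads for animal 1 and 26.0 reads for animal 2. Gene positions are those of GENCODE M21 on mm10, all 6 on the plus strand. Intervals are exact Clopper-Pearson 95% intervals and cover counting error only.

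Mir9-3, in an intron of the long noncoding RNA gene Mir9-3hg, had the most counted reads of the 6 copies. It stood at 87.5 CPM in animal 1 (333 reads, 95% interval 78.3 to 97.4) and at 168 CPM in animal 2 (438 reads, 153 to 185), a mean of 128 ± 57.1 (SD, n = 2). The level was higher in animal 2, and the intervals did not overlap. It ranked 218th of 2202 genes in animal 1 and 179th in animal 2.

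Mir9-1, in an intron of Gm3764, stood at 34.4 CPM in animal 1 (131 reads, 28.8 to 40.8) and at 26.1 CPM in animal 2 (68 reads, 20.3 to 33.1), a mean of 30.3 ± 5.86. Here the higher value was that of animal 1, and the intervals overlapped. In both animals fewer reads were counted to Mir9-1 than to Mir9-3, beyond counting error.

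Mir9-2, in an exon of C130071C03Rik, had 15 reads in animal 1 and 7 in animal 2, or 3.94 CPM (2.21 to 6.50) and 2.69 CPM (1.08 to 5.54). The order Mir9-3, Mir9-1, Mir9-2 held in both libraries with no overlap of intervals between neighbours in the order. It is an order of reads that fit no other position, and the copies differ in how much sequence allows such reads. Of 22-base windows, 87.0% in Mir9-3, 64.7% in Mir9-1 and 52.9% in Mir9-2 occurred at no other hairpin locus. How much miR-9 each copy makes is therefore not known from these counts.

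The Mir124a copies had few reads each. Mir124a-1 (ENSMUSG00000065597.1, chromosome 14, 64590657 to 64590741), in an exon of Mir124a-1hg, had 13 reads in animal 1 (3.42 CPM, 1.82 to 5.84) and 7 in animal 2 (2.69 CPM, 1.08 to 5.54). Mir124a-2 (ENSMUSG00000093073.1, chromosome 3, 17795662 to 17795770), which overlaps an exon of Mir124-2hg, had 7 reads and 1 read (1.84 and 0.384 CPM). Mir124a-3 (ENSMUSG00000065454.2, chromosome 2, 180894040 to 180894107), which shares 3 bases with an exon of Gm27032, had 4 and 2 reads (1.05 and 0.768 CPM). The intervals of the Mir124a copies and of Mir9-2 overlapped one another within each library, and the order among these 4 genes was not tested.

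Detection covered 2 of the 6 copies, Mir9-3 and Mir9-1, where 13.9% of all 2202 genes were detected. Every copy had at least 1 read in each library.

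**Figure D1:**
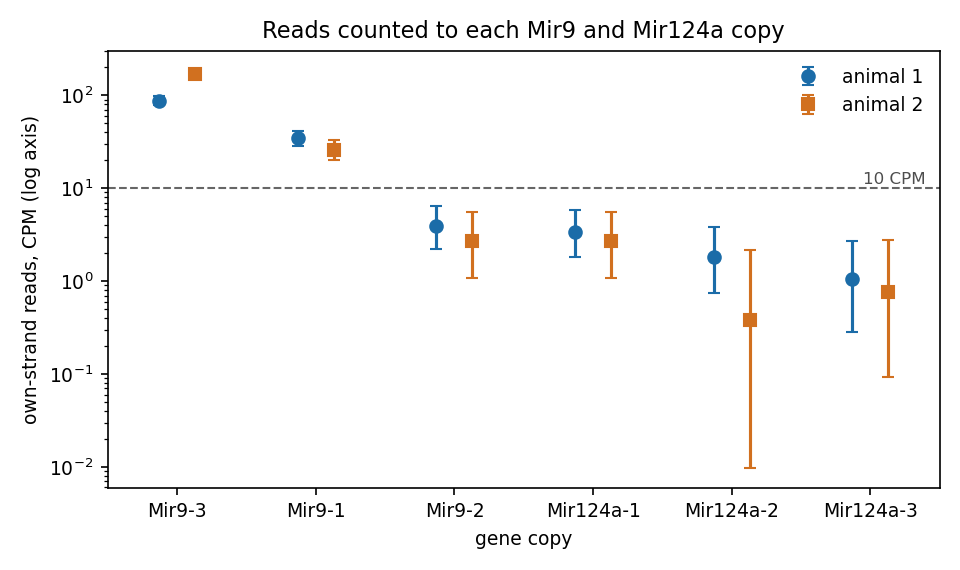
Own-strand reads of each Mir9 and Mir124a copy in CPM on a log axis, with exact 95% intervals (vertical bars) for animal 1 (circles) and animal 2 (squares); the dashed line marks 10 CPM. Mir9-3 and Mir9-1 lie above the line in both animals and the other 4 copies below it.

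Summed over its copies, Mir9 held 479 reads in animal 1 and 513 in animal 2, and Mir124a 24 and 10. In CPM that was 126 (115 to 138) and 197 (180 to 215) for Mir9, and 6.31 (4.04 to 9.38) and 3.84 (1.84 to 7.07) for Mir124a. In counted reads Mir9 was therefore 20.0 times Mir124a in animal 1 and 51.3 times in animal 2. These ratios rest on only 24 and 10 reads of Mir124a, whose sequences were not compared.

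These sums are small beside the row of reads that fit several positions. That row held 10127 reads for each read counted to a Mir9 gene in animal 1 and 6733 in animal 2. For Mir124a the numbers were 202112 and 345428. As a scale, 1% of the row would be 48507 reads in animal 1 and 34543 in animal 2, or 101 and 67.3 times the reads counted to Mir9. Which microRNAs the row holds is not recorded in the counts, so the total level of either family is not known from these values.

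The division of reads among the Mir9 copies differed between the animals. Mir9-3 held 69.5% of the family's reads in animal 1 (65.2 to 73.6), and its share was 85.4% in animal 2 (82.0 to 88.3). Mir9-1 held 27.3% (23.4 to 31.6) and 13.3% (10.4 to 16.5). Mir9-2 held 3.13% (1.76 to 5.11) and 1.36% (0.550 to 2.79). For Mir9-3 and Mir9-1 the intervals of the animals did not overlap; for Mir9-2 they did.

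The same change can be read as a ratio inside each library, which needs no scaling. For each Mir9-1 read there were 2.54 of Mir9-3 (2.07 to 3.14) in the library of animal 1 and 6.44 (4.98 to 8.44) in that of animal 2. These intervals did not overlap. Between Mir9-1 and Mir9-2 the ratio was 8.73 (5.11 to 16.0) and 9.71 (4.47 to 25.1), with overlapping intervals. With 1 library per animal, a difference between the animals cannot be told apart from one between library preparations.

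Of the Mir124a reads, Mir124a-1 held 54.2% in animal 1 (32.8 to 74.4) and 70.0% in animal 2 (34.8 to 93.3). The shares of Mir124a-2 (29.2 and 10.0%) and Mir124a-3 (16.7 and 20.0%) rest on 7 reads or fewer. All these intervals overlapped between the animals.

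**Figure D2:**
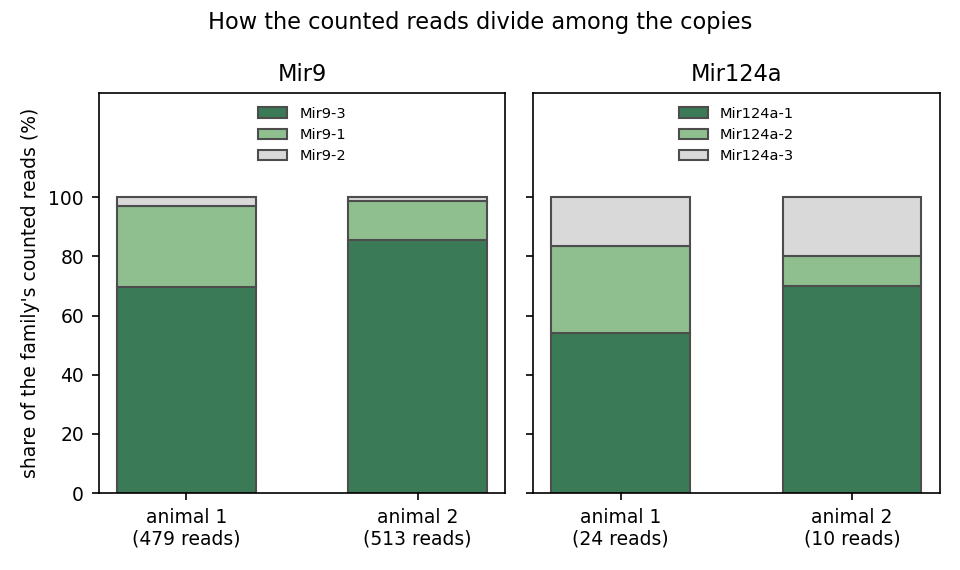
Share of each family's own-strand reads held by each copy (%), for Mir9 (left) and Mir124a (right) in animal 1 and animal 2, with the family's reads under each bar. Mir9-3 takes 69.5 and 85.4% of the Mir9 reads, and Mir124a-1 takes 54.2 and 70.0% of the Mir124a reads.

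The levels of single copies were then compared between the libraries with an exact binomial test over all 531 genes with at least 10 reads in total, after TMM scaling. This test compares the 2 libraries and not conditions. Of the 6 copies 4 could be tested, and 1 of them differed, where 51.6% of all tested genes did. Differences of this kind were therefore common among the genes. Mir9-3 was higher in animal 2, with a log2 ratio of animal 1 over animal 2 of -1.15 (95% interval -1.36 to -0.94, adjusted p = 2.16e-27 by the exact binomial test). Of all tested genes 24.7% were called higher in animal 2, and 81.7% had a smaller absolute log2 ratio than Mir9-3.

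The other copies did not pass the test. The log2 ratio was 0.19 for Mir9-1 (-0.24 to 0.64, adjusted p = 0.503, exact test), 0.30 for Mir9-2 (-1.03 to 1.88, adjusted p = 0.775, exact test) and 0.10 for Mir124a-1 (-1.29 to 1.71, adjusted p = 1, exact test). The intervals for Mir9-2 and Mir124a-1 include differences of more than 2-fold either way. Mir124a-2 and Mir124a-3 had too few reads to test. Over all tested genes the median log2 ratio was 0.04 and the median absolute log2 ratio 0.51. Calls over all genes numbered 143 higher in animal 1 and 131 in animal 2, or 189 and 91 with library totals in place of TMM.

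Genes of other cell types also differed between these libraries, as did 51.6% of all tested genes. Over all tested genes, 26.9% were called higher in animal 1 and 24.7% in animal 2. Of all listed genes 13.9% were detected. The lists below are too short to be set apart from these shares. The endothelial list held 2.89% of counted reads in animal 1 and 0.826% in animal 2, from Mir126a (110045 and 21513 reads), with 1 of 2 detected and Mir126b at 0. The choroid plexus and ciliated cell list held 0.111 and 0.150%, with 3 of 6 detected and Mir449b at 0. Its members did not move together: Mir204, the most abundant, was at 865 and 751 CPM and was not called, while Mir34b, Mir34c and Mir449a were higher in animal 2 by the exact test. The oligodendrocyte list held 0.119 and 0.164%, with 2 of 5 detected and Mir219b at 0. There Mir219a-2 and Mir338 were called higher in animal 2, but Mir219a-1 was called higher in animal 1 (77 and 4 reads). The smooth muscle and pericyte list held 0.315 and 0.452%, with 2 of 3 detected, both called higher in animal 2, and Mir145b at 0. Microglial and blood genes held 0.159 and 0.194%, with 5 of 6 detected, 3 called higher in animal 2 and Mir142b at 0. Erythroid genes held 0.00780 and 0.00465%, with 1 of 3 detected and 2 called higher in animal 1. Their part in the difference of Mir9-3 was not tested, and fewer cells of a type cannot be told apart from less RNA per cell.

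The genes whose levels over the 2 libraries lay nearest to Mir9-3, by Euclidean distance in log2(CPM + 0.5), were Mir30c-1 (distance 0.41, 111 and 143 CPM in animals 1 and 2), Mir16-2 (0.42, 113 and 146 CPM) and Mir375 (0.43, 94.1 and 126 CPM). All had a higher CPM in animal 2, by a smaller ratio than Mir9-3. Nearest to Mir9-1 were Mir486 (distance 0.28, 28.9 and 28.8 CPM), Mir429 (0.30, 28.1 and 24.6 CPM) and Mir491 (0.32, 27.9 and 28.0 CPM). Mir486 is an erythroid microRNA, and Mir429 and Mir375 are known from epithelial and endocrine cells.

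Neuron-enriched microRNA genes were read beside the copies, in a list chosen with earlier results of these data known. Of its 22 genes 21 were detected. Of all 2202 genes 13.9% were, but 1432 of them had no read in either library. The list held 5.42% of counted reads in animal 1 and 5.37% in animal 2, with a median of 889 CPM. Between the libraries 7 of the 22 were called higher in animal 1 and 8 in animal 2, with a median log2 ratio of -0.03, where 26.9 and 24.7% of all tested genes were called in these directions. It was led by Mir128-1 (16214 CPM ± 1304, SD, n = 2), Mir137 (8583 ± 983), Mir132 (6747 ± 319), a gene switched on by neuronal activity, and Mir128-2 (5851 ± 310). All 6 copies of Mir9 and Mir124a together held 0.0132% of counted reads in animal 1 (0.0121 to 0.0144) and 0.0201% in animal 2 (0.0184 to 0.0219). Any of their reads that fit several positions are not in these shares.

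Other microRNAs lie within the same host genes as some copies, on the same strand, and their levels were read beside them. Whether they share a transcript was not looked at. They are named for their position, a choice made with the values known. Mir3093 lies in Gm3764, 340 bases from Mir9-1 (chromosome 3, 88215171 to 88215257), and no annotated arm of it was found in another hairpin. Mir3093 had 286 reads in animal 1 and 168 in animal 2, which is 2.18 (1.77 to 2.71) and 2.47 (1.85 to 3.32) reads for each read of Mir9-1. Mir3078 lies in Mir124a-1hg, 443 bases from Mir124a-1 (chromosome 14, 64591185 to 64591271). It had 161 and 87 reads, or 12.4 (7.04 to 23.8) and 12.4 (5.78 to 31.8) for each read of Mir124a-1. In both pairs the neighbour had more counted reads in each library, and the intervals of the ratio overlapped between the animals. Every annotated arm of Mir9-1 is shared with other hairpins, so reads missing from its count may not be missing from that of Mir3093. The arms of Mir3078 and Mir124a-1 were not compared. The ratios are therefore of counted reads only.

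Gm25641, a gene of miR-9b on the opposite strand of Mir9-1 (chromosome 3, 88215589 to 88215696), had no read on its own strand in either library. A count of 0 allows up to 0.788 CPM in animal 1 and 1.15 CPM in animal 2. Both annotated arms of Gm25641 also occur in other hairpins, so reads that fit several positions may be missing from its count. The limit therefore covers reads counted to Gm25641 and not miR-9b as a whole. The opposite-strand column of Gm25641 held 131 and 68 reads, the same reads that are counted to Mir9-1. In the unstranded column both genes were at 0, so the level of Mir9-1 can be read only from the own-strand column. M21 has no microRNA gene on the opposite strand of the other 5 copies.

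Other families of numbered copies were set beside Mir9 and Mir124a. In all there were 38 families, the Mir124a family among them without sequence. For 36 of them every copy had a sequence in the RefSeq table. In 27 of these families at least 1 annotated arm was found in no other hairpin, and 20 of the 27 had a detected copy, with a median summed level of 70.8 CPM. In the remaining 9, Mir9 among them, every annotated arm was shared with another hairpin. Mir9 led these 9 families at 161 CPM ± 50.4, and it was the only one with a detected copy. The next was Mir199a at 0.657 CPM.

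In the families with the highest sums at least 1 copy had an arm of its own. Mir128, with a shared 3p arm and a 5p arm of its own in each copy, summed to 166 times Mir9 in animal 1 and 118 times in animal 2. Mir181b summed to 29.2 and 20.3 times Mir9, Mir138 to 31.9 and 17.7 times, and Mirlet7c to 17.2 and 15.0 times. In Mirlet7c only Mirlet7c-1 has such an arm, while most reads went to Mirlet7c-2, whose arms are both shared.

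The share of the leading copy moved between the animals in other families too. In the 20 families with at least 100 reads in each library, it differed by a median of 4.73 percentage points. For Mir9-3 the difference was 15.9 points, and 2 families had a larger one. Mir26a-2 held 84.6% of its family's reads in animal 1 and 39.8% in animal 2, and Mir16-1 held 79.3 and 48.7%. Just below Mir9-3 came Mir135a-1, at 70.7 and 56.4%. The families with the highest sums moved little, with Mir128-1 at 73.1 and 73.8%, Mir181b-2 at 99.1% in both, Mir138-1 at 71.3 and 70.7% and Mirlet7c-2 at 79.2 and 80.5%. The shift within Mir9 was thus among the larger ones and was not particular to it.

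**Figure D3:**
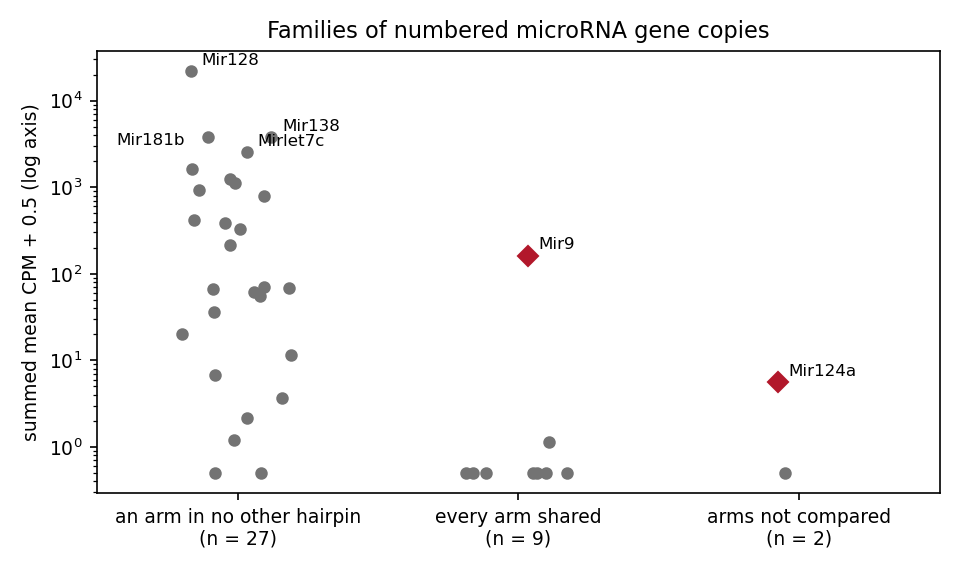
Summed mean CPM of each family of numbered copies, with 0.5 added, on a log axis; each point is 1 family, placed by whether an annotated arm occurs in no other hairpin. Diamonds are Mir9 at 161 CPM and Mir124a, whose arms were not compared; the 8 other families in the middle column lie at or near 0.

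Seen gene by gene, 88 genes had an annotated mature arm that was also found in another hairpin, and 38 of these (43.2%) were detected. That compares with 225 of 866 (26.0%) with no annotated arm shared and 13.9% of all listed genes. Arms that are not annotated for a gene do not count here. Mirlet7a-2 is thus among the 866, though its hairpin also holds the let-7a-5p arm annotated for Mirlet7a-1. Where 1 base past the 3′ end of a shared arm tells the gene from all others, 14 of 20 genes were detected, with a median of 31.7 CPM. Genes with 2 shared arms were placed by the arm that needs fewer bases. Where 2 bases are needed, as for the 3p arm of Mir9-3, the number was 12 of 19 (38.6 CPM). At 3 bases it was 1 of 5 (1.94 CPM). At 4 or more, as for the 5p arms of Mir9-1 and Mir9-2, it was 9 of 21 (17.4 CPM). Where the hairpins do not differ before their annotated end, 2 of 23 were detected. Detection did not fall steadily with the number of bases. These groups mix genes with and without an arm of their own. Reads of an arm found in no other hairpin need no bases past its end. Of the 54 genes with such an arm besides the shared one, 32 were detected (59.3%) and 9 had no read in either library. Of the 34 genes with every annotated arm shared, 6 were detected (17.6%) and 24 had no read in either library. Mir9-3 and Mir9-1 were the 5th and 6th of the 34 by mean CPM, after Mirlet7c-2 (2046 CPM), Mir219a-2 (770), Mirlet7a-1 (288) and Mir129-1 (258). Mir219a-2 and Mir129-1 have only 1 annotated arm, so whether they have an arm of their own is not known here. The counts are descriptions across genes, which share hairpin sequences and libraries. Whether the sharing of an arm bears on detection was not tested.

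**Figure D4:**
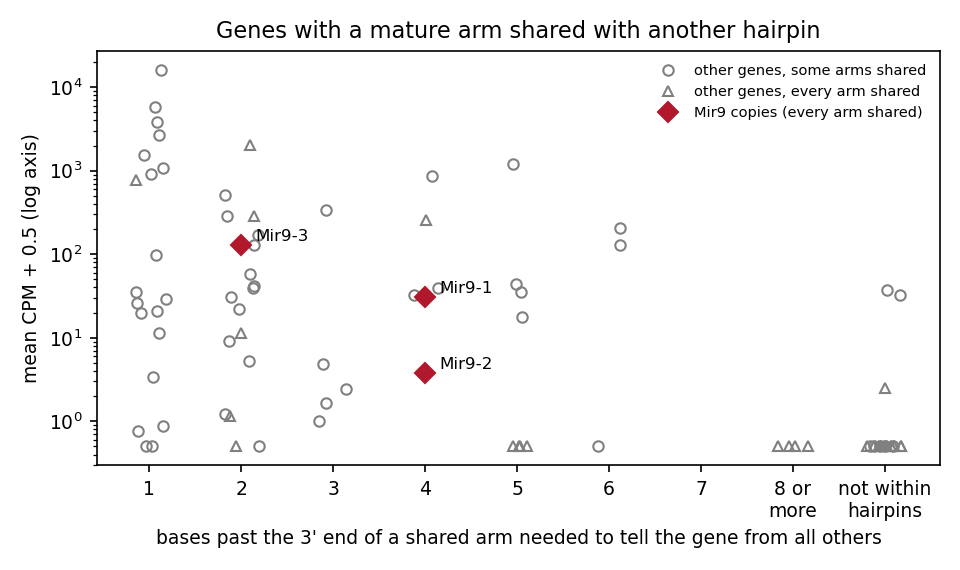
Mean CPM of genes with a shared mature arm, with 0.5 added, on a log axis, against the number of bases past the 3′ end of that arm needed to tell the gene from every other hairpin. Where 2 arms are shared, the one that needs fewer bases is used. Circles have an annotated arm of their own besides, triangles have no such arm annotated, and diamonds are the Mir9 copies. Mir9-3 is at 2 bases by its 3p arm, and Mir9-1 and Mir9-2 are at 4 by their 5p arms.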

How the data were processed

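The deposited tables, 1 per library, hold whole-number read counts and have no header; that they are raw, and which column is unstranded, own strand or opposite strand, was read from the values. The build mm10 and the annotation GENCODE M21 are given per the notes deposited beside each table. Aligner and counter were not given in the sources used here. All 2202 gene identifiers matched M21 symbols. The 4 rows of reads not counted to a gene stayed out of library sizes. Counted reads were 33.5 and 30.4% of all reads in animals 1 and 2. A count of 0 allows 3 reads.

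TMM factors (edgeR 4.0.16, 531 genes) and an exact two-sided binomial test with Benjamini-Hochberg adjustment at 0.05 (scipy 1.17.1) were used; log2 ratios have 0.5 added to counts. The test was checked on simulated counts that held counting error and set fold changes only. That check does not cover variation between animals or library preparations. Alternatives were the unstranded column, other scalings, no filter, other detection limits, other window lengths and leaving out each library. RefSeq sequences (GRCm38.p6, 1005 hairpins) matched 968 genes by symbol and position. The named genes are the 6 copies, overlapping genes, the 3 nearest genes of each detected copy, the 4 highest other families of copies and up to 4 genes of each list. The members and lists were chosen with earlier results of these data known, and the minimum of 100 reads for family shares was set after the values were seen.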

Additional observations from a re-analysis of the deposited data

Results flagged for a closer look

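Reads outside the own-strand counts were looked for at each copy. Mir124a-3 had 5 reads on the opposite strand in animal 1, above the 3 reads that a count of 0 allows, beside 4 on its own strand; in animal 2 it had 1, and Mir9-3 also had 1. No microRNA gene is annotated opposite Mir124a-3. Reads that fit several positions numbered 4850682 in animal 1 and 3454278 in animal 2, and the counts do not say how many of them are miR-9 or miR-124.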

How the results depend on the processing

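No paired analysis was possible because there is 1 group. Leaving out 1 of 2 libraries only gives the other library's levels and shares, so it says nothing of their stability. In the unstranded column Mir9-1 fell to 0 CPM and 0% of its family, so 1 copy was detected; the share of Mir9-3 was 97.1%, and Mir124a-3 stood at 1.90 CPM and 29.2%. With reads of several positions in the denominator the mean levels were 13.2 (Mir9-1), 1.44 (Mir9-2), 55.4 (Mir9-3), 1.33 (Mir124a-1), 0.487 (Mir124a-2) and 0.396 CPM (Mir124a-3). At 1 CPM 4 copies were detected and at 100 CPM 0. Library totals moved the median log2 ratio of all genes from 0.04 to 0.25; Mir9-3 was then -0.94, and -1.20 with DESeq2 size factors, and was called under all 4 alternatives. The counts of Mir124a copies are too low to show differences between the animals. Differences between the libraries need both, so neither could be left out there.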
